A study of Salix viminalis with 12 samples.

Results

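The starch breakdown enzymes described here are 10 Arabidopsis genes whose codes were looked up in the annotation of a root transcriptome of *Salix viminalis* (basket willow). A contig, which is an assembled coding sequence, was taken as a member when its Arabidopsis code without the dot suffix was that of one of the 10 genes. All 10 genes were found among the 13764 Arabidopsis genes of the annotation, and they were matched by 47 of its 86843 contigs. The libraries came from roots of cuttings of a single individual, so that they represent 1 clone, and 3 libraries were made from each of the 4 groups. The groups were metal-polluted soil cold acclimated (MC), metal-polluted soil temperate (MT), control soil cold acclimated (CC) and control soil temperate (CT), the last being the reference of the study. The metal soil of MC and MT held 1.5 ppm of added Cd, 175 ppm of Cu, 30 ppm of Ni and 500 ppm of Zn, and the plants had spent 40 days on their soil before the temperature treatment of 4 weeks. The growth protocol gives 7/5 °C (day/night) for MC and CC and 23/20 °C for MT and CT, whereas the treatment labels give 4 °C and 22 °C.

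Starch is broken down in plastids from the surface of the granule. Dikinases first add phosphate to the glucan chains, which loosens their packing, and phosphatases remove this phosphate again so that amylases can pass. Beta-amylases release maltose from the chain ends, and debranching enzymes and alpha-amylase open the branched parts. The plastid disproportionating enzyme rebuilds the short chains that remain. Maltose leaves the plastid and is metabolised in the cytosol. The release of soluble sugars from starch is a known part of cold acclimation in plants, and roots store starch in amyloplasts. These roles were worked out mainly in Arabidopsis leaves.

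The annotation describes the assembly of all 12 libraries together, and 0 of its 5 columns hold a value per library. The levels of the 10 genes in MC, MT, CC and CT were therefore not compared, and library depth cannot be read from it. The counts given below are numbers of distinct assembled sequences. They have no replicates and no error, and they measure neither expression nor the number of willow gene copies, since isoforms, gene copies and fragments of a transcript each add contigs. Marker genes of the tissue were also looked up. Of 8 root markers, 7 were matched, with a median of 1 contig among those matched. PHO1 had 11 contigs, SHR 6 and SCR 3, whereas WOX5, CASP1, EXPA7 and NRT2.1 had 1 each, and RHD6 of root hairs was not matched. Of 4 genes used as leaf markers, RBCS1A, PSBO1 and RCA were matched by 3, 2 and 2 contigs, and LHCB1.1 by none. The matched leaf markers had a median of 2 contigs, so that the presence of a contig does not tell root from leaf tissue here. Whether the contigs of leaf markers concern the starch genes was not tested.

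Each of the 10 starch breakdown genes was matched by more than 1 contig, which was the case for 77.7% of all genes in the annotation. The members had a median of 4.5 contigs, from 2 to 8, and the median over all genes was 3 contigs (quartiles 2 and 5). Of the 10 members, 7 were above the median of all genes, 1 was at it and 2 were below it. No test was made of these differences, because contigs of a gene are not independent samples. Every role covered by the list was represented in the assembly. The list was chosen with earlier results of these data known, so that this does not show a complete pathway. BAM1 led with 8 contigs, and LSF1 and BAM3 had the fewest with 2 contigs each.

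**Figure D1:**
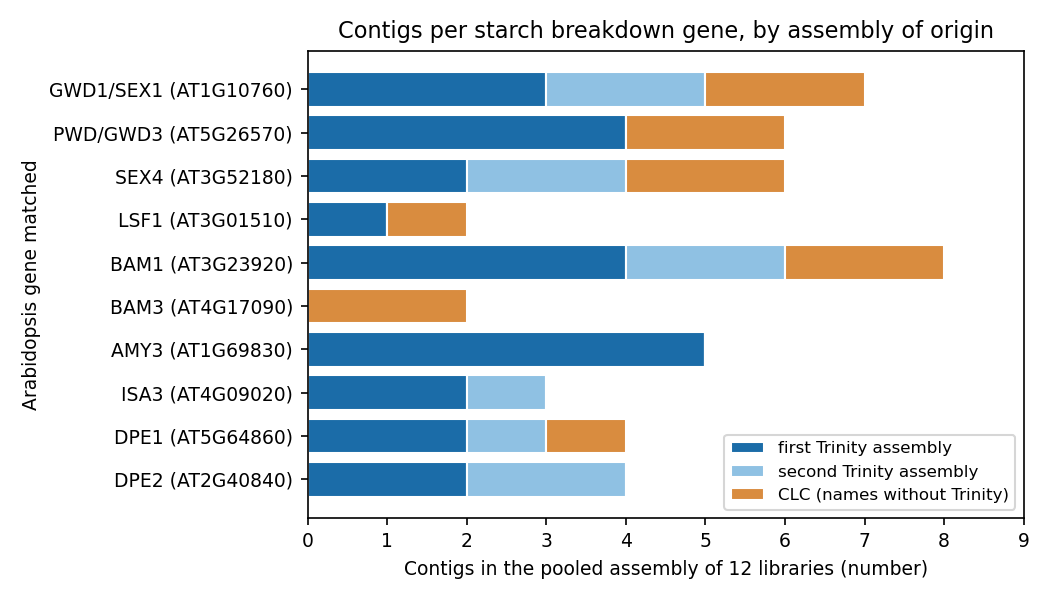
Number of contigs (horizontal axis) matched to each of the 10 starch breakdown genes (vertical axis), with bar segments for the assembly each contig came from. Bars run from 2 contigs for LSF1 and BAM3 to 8 for BAM1, BAM3 consists of CLC contigs only, and AMY3 of contigs of the first Trinity assembly only.

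The contigs were taken to come from 3 assemblies of the same reads. The marks V1 and V2 in the contig names were read as a first and a second run of Trinity. Contigs without a Trinity name were assigned to CLC by elimination. After merging and collapsing of similar sequences, 25 of the 47 member contigs (53.2%) were named V1, 10 (21.3%) V2 and 12 (25.5%) were CLC contigs. Among all contigs with a code, these shares were 52.9%, 21.4% and 25.8%, so that the members were split among the assemblies much as the annotation was. At least 1 contig of the first Trinity assembly was left for 9 of the 10 members, against 77.9% of all genes. The second Trinity assembly had contigs of 6 members, against 44.6% of all genes, and CLC had contigs of 7 members, against 69.0% of all genes. Contigs from all 3 assemblies were left for 4 members, GWD1, SEX4, BAM1 and DPE1, and for 25.9% of all genes. The list is too short to read a difference from these shares.

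The glucan water dikinases start the pathway. AT1G10760 (GWD1, also SEX1 for starch excess, the phenotype of its Arabidopsis mutant) adds the first phosphate to the starch chains. It was matched by 7 contigs, 3 from the first Trinity assembly, 2 from the second and 2 from CLC, and 82.3% of all genes had fewer. AT5G26570 (PWD, also GWD3), which acts on chains that already carry phosphate from GWD1, was matched by 6 contigs, 4 from the first Trinity assembly and 2 from CLC. In the first Trinity assembly, the contigs left for the dikinases after merging were grouped differently. The 4 Trinity contigs of PWD were all isoforms of the same Trinity gene, meaning that Trinity grouped them as transcripts of a common locus, with isoform numbers 9, 11, 17 and 19 in component DN112073. The 3 contigs of GWD1 in the first Trinity assembly instead belonged to 3 Trinity genes, of which 2 lay in component DN112097 and 1 in DN111826. In the second Trinity assembly, both contigs of GWD1 were isoforms of the same Trinity gene, with isoform numbers 4 and 18.

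The glucan phosphatases differed in their number of contigs. AT3G52180 (SEX4), the phosphatase that takes phosphate off starch chains, had 6 contigs, with 2 from each of the 3 assemblies. AT3G01510 (LSF1, like SEX4), which binds beta-amylases at the granule in Arabidopsis, had 2 contigs, 1 from the first Trinity assembly and 1 from CLC. The 2 contigs of SEX4 in the first Trinity assembly were isoforms of the same Trinity gene, whereas those in the second belonged to 2 Trinity genes of the same component, DN111178. More contigs than LSF1 and BAM3 were found for 56.8% of all genes.

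The beta-amylases showed the widest gap among members of the same role. AT3G23920 (BAM1), a plastid beta-amylase, had 8 contigs, 4 from the first Trinity assembly, 2 from the second and 2 from CLC, and only 10.7% of all genes had more. Its 6 Trinity contigs belonged to 5 Trinity genes, the most of any member, in 3 components. AT4G17090 (BAM3), known as the main beta-amylase of Arabidopsis leaves at night, had 2 contigs, both from CLC and none with a Trinity name. It was the only member without a Trinity contig. A Trinity sequence of BAM3 that was collapsed into a CLC contig would leave no name of its own, so that its absence describes the merged assembly and not what Trinity built.

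AT1G69830 (AMY3), the plastid alpha-amylase, cuts inside the glucan chains. Its 5 contigs came from the first Trinity assembly alone, with 3 isoforms of a Trinity gene in component DN106963 and 2 isoforms of another in DN100593. AT4G09020 (ISA3), the isoamylase that removes branches during starch breakdown, had 3 contigs, 2 isoforms of the same Trinity gene in the first Trinity assembly and 1 contig in the second. Their isoform numbers in the first assembly were 17 and 20, and 20 was the highest isoform number among the members. AMY3 and BAM3 were the 2 members whose contigs all came from a single assembly, which was the case for 34.4% of all genes. This share includes the 22.3% of genes with 1 contig, which can only come from a single assembly. No member had 1 contig, so the shares are not directly comparable.

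The disproportionating enzymes had equal numbers. AT5G64860 (DPE1), which recycles short glucan chains in the plastid, had 4 contigs, with 2 from the first Trinity assembly and 1 from each of the others. AT2G40840 (DPE2), which uses exported maltose in the cytosol, had 4 contigs, 2 from each Trinity assembly and none from CLC. In each Trinity assembly, the contigs of DPE2 were isoforms of the same Trinity gene.

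**Figure D2:**
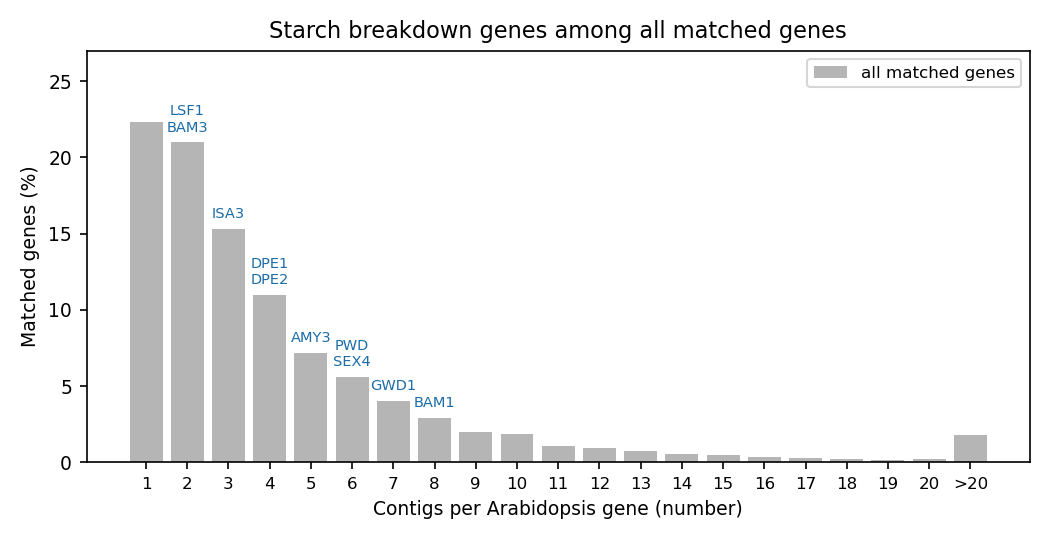
Percentage of the 13764 matched Arabidopsis genes (vertical axis) with each number of contigs (horizontal axis, >20 pooled), with the 10 starch breakdown genes written above the bar of their number. The members stand between 2 contigs, the number of 21.0% of all genes, and 8 contigs, the number of 2.93%.

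Within the group, most Trinity contigs that shared a gene within an assembly also shared a Trinity gene. CLC contigs have no Trinity gene and are left out of this count. Whether contigs of the same Trinity gene are isoforms, gene copies or fragments was not tested. Of the 35 Trinity contigs, which belonged to 22 Trinity genes, 32 shared their Arabidopsis gene with another contig of the same assembly. Of these 32, 23 (71.9%) also shared a Trinity gene with it, against 57.7% of such contigs over all genes. The other 9 belonged to GWD1, SEX4 and BAM1. Each of the 47 contigs came from a parent transcript of its own, and 0 of these transcripts carried a further listed coding sequence. For 6 contigs the number at the end of the contig name, which tells the coding sequences of a transcript apart, was 2, namely 2 contigs of AMY3 and 1 each of GWD1, PWD, ISA3 and DPE1. Numbers other than 1 stood at the end of 12.8% of the names of member contigs and of 11.8% of those of all contigs with a code. All 47 member contigs had the code of the first listed gene model, with the suffix 1, as did 86.8% of all contigs with a code. Each member contig also had a gene symbol and a description, which 46.0% and 92.7% of all contigs with a code had. The members were chosen as known enzymes, so no difference is read from these shares.

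Trinity components are taken here as all names of an assembly that share a DN number, whatever the rest of the name. Some components held members beside other genes, which does not show that Trinity placed them in the same locus. The Trinity contigs of the members lay in 18 components, and 6 of these held contigs with the code of a gene outside the group. Among components with more than 1 contig with a code, this was the case for 6 of 15 with a member (40.0%), and 31.2% of all such components held more than 1 gene. BAM1 shared a component with AT4G13540, for which the annotation gives no symbol and no description, in both Trinity assemblies. In the first, component DN106743 held 2 contigs of BAM1 and 2 of AT4G13540 in separate Trinity genes. In the second, component DN104412 held 2 contigs of BAM1 and 1 of AT4G13540, and the contig of AT4G13540 was in the same Trinity gene as 1 of the BAM1 contigs. All 3 contigs of AT4G13540 in the annotation lay in these 2 components. The other pairings were each seen in 1 assembly. GWD1 shared DN111826 with AT4G27220, an NB-ARC disease resistance gene, with 6 contigs there of its 525 in the annotation, the most of any gene. GWD1 also shared DN112310 with AT1G17100, a SOUL heme-binding protein, with 1 of its 5 contigs there. AMY3 shared a component with AT2G23060, an N-acyltransferase, with 2 of its 5 contigs and with AT3G58720, a RING/U-box protein, with its only contig. DPE1 shared a component with AT1G23030, an ARM repeat protein, with 3 of its 4 contigs. Why these genes shared a component was not tested.

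Most other genes listed for starch metabolism were matched as well. The annotation names matched genes only, so the share of all Arabidopsis genes that were matched is not given beside these counts. They are not read as particular to starch genes. Of 16 further genes listed with starch breakdown, 13 were matched, with a median of 6 contigs from 2 to 16 among those matched. This list takes in the other beta-amylase genes by family, whether or not their products break down starch. The highest was AT3G46970 (PHS2), the cytosolic glucan phosphorylase, with 16 contigs, followed by its plastid counterpart AT3G29320 (PHS1) and the limit dextrinase AT5G04360 (LDA), which also removes branches, with 10 contigs each. The 3 genes without a contig were AT4G24450 (GWD2), the cytosolic dikinase, and the beta-amylases AT5G55700 (BAM4) and AT2G32290 (BAM6). Of all 9 beta-amylase genes of Arabidopsis, 7 were thus matched, by 37 contigs, and BAM3 had the fewest among them. The exporter of maltose, AT5G17520 (MEX1), had 5 contigs, all from the first Trinity assembly. Of 16 genes of starch synthesis, 15 were matched, with a median of 4 contigs from 1 to 11 among those matched. The highest was AT5G51820 (PGM1), the plastid phosphoglucomutase, with 11 contigs, and AT2G21590 (APL4), a large subunit of ADP-glucose pyrophosphorylase, had none. No gene of these lists shared a component or a parent transcript with a member. A gene without a contig may still be transcribed in these roots, since its sequence may have been matched to a related gene, collapsed or not assembled.

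**Figure D3:**
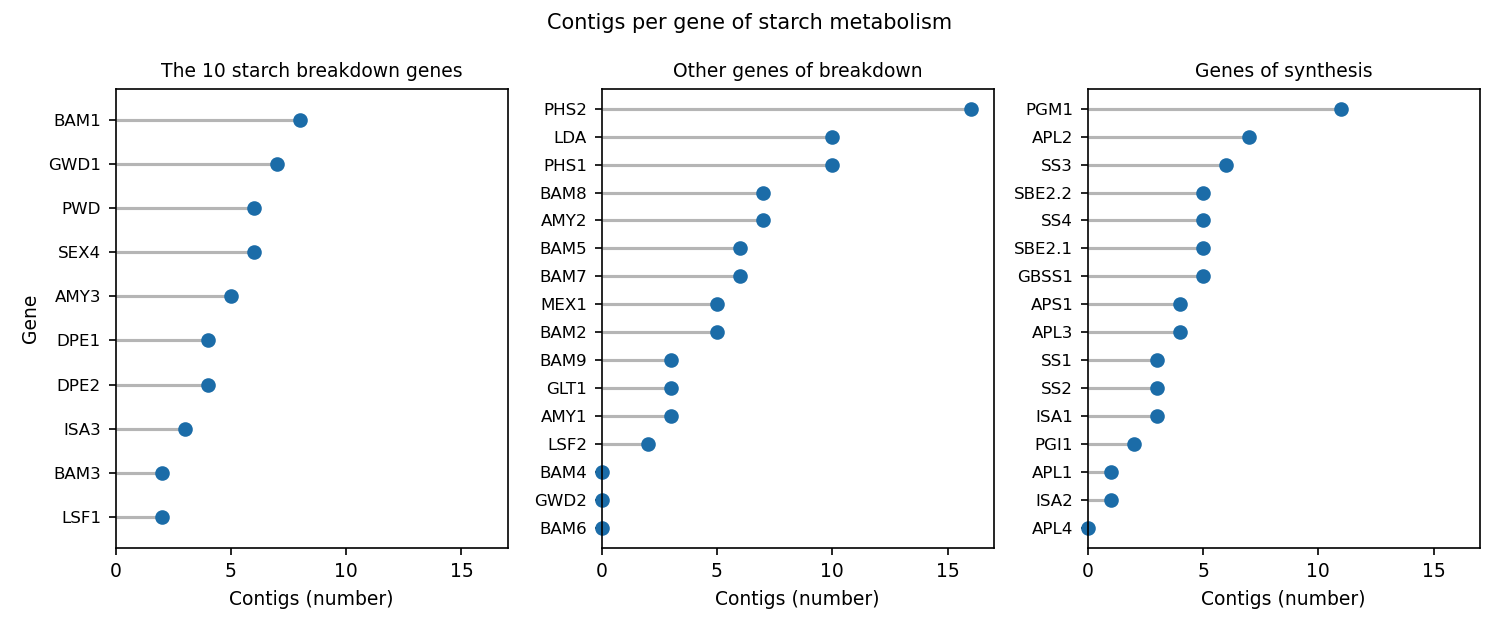
Number of contigs (horizontal axes) per gene (vertical axes) for the 10 starch breakdown genes, 16 other genes listed with starch breakdown and 16 genes of starch synthesis. Each panel is sorted by number, with a point at 0 for a gene without a contig. The members range from 2 to 8 contigs, and PHS2 has 16.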

How the data were processed

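Root RNA of 12 libraries was sequenced by the authors. After trimming, the authors built assemblies with CLC Genomics Workbench and with Trinity. The merged sequences were searched for coding sequences with TransDecoder, similar ones were collapsed with cd-hit-est, and the authors kept the top BLAST hit against the *S. purpurea* transcriptome. The deposited annotation holds names and text only, which is recorded as another unit, with no count, length or match score, so that the planned tests of MC, MT and CC against CT were not run and no gene could be ranked by likeness of its levels.

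Here, contigs were counted per Arabidopsis gene, and the assembly, component, Trinity gene and isoform number were read from their names (Python 3.11.15, NumPy 2.4.6, matplotlib 3.10.9). The counting was tested on simulated data, in which all codes had the same suffix and none was missing. Other suffixes and missing codes were therefore not tried. The 10 members and the gene lists were chosen with earlier results of these data known. The text names all members, of the lists of other breakdown and of synthesis genes those with the most and with no contigs, and every gene sharing a component or transcript with a member. PHS1, LDA, MEX1, the root and leaf markers and the genes of the closing section were named after their values were seen. Other units of counting, single assemblies and other ways to find members were tried. Gene locations and sequences were not used here. The assembly pools all libraries, so that depth per library, and the precision it gives, cannot be read from the annotation.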

Additional observations from a re-analysis of the deposited data

How the results depend on the processing

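The 47 contigs of the 10 genes became 34 when Trinity genes were counted in place of contigs, 47 with parent transcripts or only contigs with a description, and 55 when members were found by symbol or description, an excess that came from other genes. In single assemblies, where fewer contigs are counted by construction, there were 25 in the first Trinity assembly, 10 in the second and 12 in CLC. All 10 members kept more than 1 contig except in single assemblies, with 8 in the first Trinity assembly, 4 in the second and 5 in CLC. The median of 4.5 contigs was 2.5 with Trinity genes, 2 in the first Trinity assembly, 1 in the second and 1.5 in CLC. No values over all genes were set beside these, so whether the members still stood above the median of all genes was not tested. With Trinity genes, and CLC contigs counted as they are, GWD1 had 6, PWD 3, AMY3 2 and DPE2 2, so that the order of the members depends on the unit counted. No paired analysis was possible because the annotation holds names without values for single libraries. Therefore the other normalization, the run without a filter on low counts and the removal of each library were not run.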

Other observations

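For BAM1 and BAM3, the symbol leads to a further gene besides that of the code, which was noticed when the members were counted by symbol alone, a setting chosen after seeing the data. The symbols BAM1 and BAM3 are also those of AT5G65700 with 4 contigs and AT4G20270 with 2 contigs, both described as leucine-rich receptor-like protein kinases. A search by symbol therefore returned 53 contigs in place of 47, with 12 in place of 8 for BAM1 and 4 in place of 2 for BAM3, and the same number as the code for each of the other members. The description of SEX4, a dual specificity protein phosphatase, is shared with AT3G10940 (LSF2), a further glucan phosphatase with 2 contigs and no symbol. The description of GWD1 names only a pyruvate phosphate dikinase domain and mentions neither starch nor glucan.

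For BAM8 and BAM9, the number in the description is not that of the BAM symbol but that of the BMY symbol listed beside it. AT5G45300 (BAM8, BMY2), with 7 contigs, is described as beta-amylase 2, as is AT4G00490 (BAM2), with 5 contigs. AT5G18670 (BAM9, BMY3), with 3 contigs, is described as beta-amylase 3, whereas AT4G17090 (BAM3), with 2 contigs, is described as chloroplast beta-amylase. The maltose exporter AT5G17520 (MEX1) is described as root cap 1, and the plastid phosphorylase AT3G29320 (PHS1) only by its glycosyl transferase family.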
